A study of Homo sapiens with 36 samples.

Results

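The 10 genes described here encode core proteins of nucleotide excision repair: the damage sensors XPC and DDB2, the damage verifier XPA, the TFIIH helicases ERCC2 and ERCC3, the nuclease subunits ERCC1, ERCC4 and ERCC5, and the transcription-coupled repair factors ERCC6 and ERCC8. They were chosen for their place in the pathway, by a rule that uses no measured value but with earlier results of these data known, from 19775 genes that the arrays represent. Each gene was followed with the probe set that had the highest mean over all arrays among sets annotated to that gene alone, and the 8 further probe sets of these genes were read as a check. All 10 genes passed the filter for testing in both compounds.

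The arrays measured RNA from HK-2, an immortalized line of human kidney proximal tubule cells. The series asked how the expression profile of these cells changes with nephrotoxic compounds, of which a compound labelled Aa and a compound labelled Ota were analysed here. The 36 arrays form 12 groups of 3 biological replicates. For Aa the groups are vehicle control, low dose and high dose at 24 h and at 48 h, and for Ota the same 3 conditions at 24 h and at 72 h. Control cells received the vehicle, with a separate control group for every compound and time. The sources used here give neither concentrations nor full compound names, so whether the doses of Aa and Ota match is not known. All groups are the same single cell line, grown in medium with hormone and growth factor supplements, and no other cell model enters any comparison. RNA was pooled over all cells of a culture, so a loss of cells of one kind and less RNA per cell cannot be told apart.

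Nucleotide excision repair removes bulky adducts and ultraviolet photoproducts that distort the double helix. XPC, helped by DDB2 at ultraviolet lesions, finds damage anywhere in the genome, while ERCC6 (CSB) and ERCC8 (CSA) act where an RNA polymerase has stalled at a lesion in a transcribed strand. Both routes load TFIIH, whose helicases ERCC3 (XPB) and ERCC2 (XPD) open the DNA. XPA checks the lesion and helps to place the nucleases, the ERCC4-ERCC1 heterodimer (XPF-ERCC1) on the 5′ side and ERCC5 (XPG) on the 3′ side, after which polymerases and ligases fill the gap. XPC and DDB2 are known target genes of the tumour suppressor p53. Inherited loss of these genes causes xeroderma pigmentosum, Cockayne syndrome or trichothiodystrophy.

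Upstream sequences of 4 genes are shown, because the results turn on them: XPC and DDB2 as sensors that were higher with the Aa high dose and lower with the Ota high dose at 24 h on the deposited scale, XPA as the largest fall, and ERCC4 as the member called higher in the most comparisons. They run 5′ to 3′ on the gene's strand and end at the base before the annotated start, from RefSeq on GRCh38.p14. They are chr3:14178602-14178816 on the minus strand for XPC (215 bases, since the gene LSM3 begins beyond them), chr11:47214204-47214453 on the plus strand for the first listed start of DDB2, chr9:97697341-97697590 on the minus strand for XPA, and chr16:13919904-13920153 on the plus strand for ERCC4. Capitals mark matches on either strand to GGGCGG or CCAAT or CCGGAA or TGACG in the first 3, and to TTCGGCT in ERCC4.
XPC: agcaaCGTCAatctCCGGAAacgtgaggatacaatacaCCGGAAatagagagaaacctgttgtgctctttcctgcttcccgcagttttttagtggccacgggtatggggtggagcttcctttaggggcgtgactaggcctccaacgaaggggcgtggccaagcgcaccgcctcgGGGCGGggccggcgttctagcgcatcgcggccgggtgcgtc
DDB2: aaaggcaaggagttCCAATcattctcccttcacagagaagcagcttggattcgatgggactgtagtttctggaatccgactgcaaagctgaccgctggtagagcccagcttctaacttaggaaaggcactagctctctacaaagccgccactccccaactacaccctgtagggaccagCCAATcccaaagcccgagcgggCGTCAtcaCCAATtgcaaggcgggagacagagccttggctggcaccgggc
XPA: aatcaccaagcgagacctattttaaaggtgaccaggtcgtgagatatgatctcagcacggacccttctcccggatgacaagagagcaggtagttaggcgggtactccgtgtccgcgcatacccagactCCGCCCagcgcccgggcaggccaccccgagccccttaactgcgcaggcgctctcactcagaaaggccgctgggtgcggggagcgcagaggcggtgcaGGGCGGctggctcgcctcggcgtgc
ERCC4: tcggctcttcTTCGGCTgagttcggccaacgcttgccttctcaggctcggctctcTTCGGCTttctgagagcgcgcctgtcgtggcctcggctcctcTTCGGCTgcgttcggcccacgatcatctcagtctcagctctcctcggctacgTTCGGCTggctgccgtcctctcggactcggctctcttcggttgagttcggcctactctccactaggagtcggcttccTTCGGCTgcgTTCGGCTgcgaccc

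All 10 genes had an entry among the RefSeq promoter windows, with 14 windows over their listed starts, and each was searched over the full 250 bases before the start, also where fewer are printed. Of all 35116 windows, 42.6% held GGGCGG, 32.0% CCAAT, 14.5% CCGGAA and 21.2% TGACG. XPC held 1 GGGCGG, 2 CCGGAA and 1 TGACG, and XPA held 2 GGGCGG. The first listed start of DDB2 held 3 CCAAT and 1 TGACG, and its second start held 3 GGGCGG and none of the others. The TTCGGCT repeat was picked after reading the ERCC4 window. That window held it 6 times, the most of any window, and no other window held more than 4 copies, while 1.69% of windows held it at all. The p53 half-site, found in 5.57% of windows, matched none of the 14 member windows. TGANTCA and TATAAA, in 6.57% and 10.7% of all windows, had no match in these 14 either. A match or its absence describes these letters only.

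Of 15 renal epithelial marker genes with a probe set, 7 exceeded a log2 value of 4 in the group means of every group except Ota high dose at 24 h, where 8 did. In every group 4 of 5 fibroblast markers, 3 of 6 distal nephron markers and 1 of 5 endothelium markers also exceeded it. The cell line is taken from the labels and not from these counts. PAX8, a kidney transcription factor, was at 10.83 ± 0.09 in the Aa controls at 24 h (log2, SD, n = 3), whereas the mature tubule markers CUBN, LRP2 and SLC22A6 lay under 4 there. The Ota high dose arrays were dimmer than the rest: the array median over tested genes averaged 7.64 ± 0.16 at 24 h, where controls had 8.28 ± 0.06, and 7.95 ± 0.05 at 72 h, where controls had 8.28 ± 0.02 (log2, SD, n = 3). The 3′ minus 5′ difference of the actin control probes, a sign of RNA degradation, reached 1.88 ± 0.37 with the Ota high dose after 72 h, and 1.29 ± 0.15 in the matching controls. The summed level of 4 leukocyte markers was 6.85 to 7.29 in Ota high dose at 24 h and 6.64 to 7.30 at 72 h, against 4.32 to 4.56 over the Ota controls, with the defining marker PTPRC under 4 on all arrays. The part of these shifts in the member changes was not tested.

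Changes below are log2 differences from the matching controls ± SE, and a change is called when limma's adjusted p is under 0.05 over all genes tested. An unlabelled value in parentheses after a change or a left-out array is limma's adjusted p. With 3 arrays a group, the number of arrays limits the precision. In the Aa high dose at 24 h, 5 members were higher and 2 lower than in controls, where 51.3% of all genes tested were called (27.4% higher and 24.0% lower). At 48 h it was 4 higher and 2 lower, with 66.0% of all genes called (30.9% higher and 35.1% lower). The Aa low dose gave 1 higher and 3 lower at 24 h, with 25.1% of all genes called (11.6% and 13.5%). At 48 h it gave 4 higher and 3 lower, with 37.9% called (18.8% and 19.1%). In the Ota high dose at 24 h, 1 member was higher and 7 lower, with 64.0% of all genes called (21.6% higher and 42.4% lower). Under other scalings this was 1 higher and 5 lower (quantile normalization) or 2 higher and 4 lower (arrays shifted to a common median). At 72 h it was 2 higher and 5 lower, with 63.4% called (26.3% and 37.0%), and under the same scalings 3 and 5, or 4 and 5. The Ota low dose gave 1 higher and 3 lower at 24 h, with 14.7% called (4.66% and 10.0%). At 72 h no member was called by limma, although 4 had an unadjusted p under 0.05, and 17.1% of all genes were called (9.79% higher and 7.28% lower). Quantile normalization called 2 members there, and arrays shifted to a common median called 3.

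The median change of the 10 members was 0.28 in Aa high dose at 24 h and 0.13 at 48 h, beside 0.03 and -0.04 over all genes tested. It was -0.89 in Ota high dose at 24 h and -0.67 at 72 h, beside -0.26 and -0.12 over all genes. The plot of values by array shows that these medians hide genes that moved in opposite directions.

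**Figure D1:**
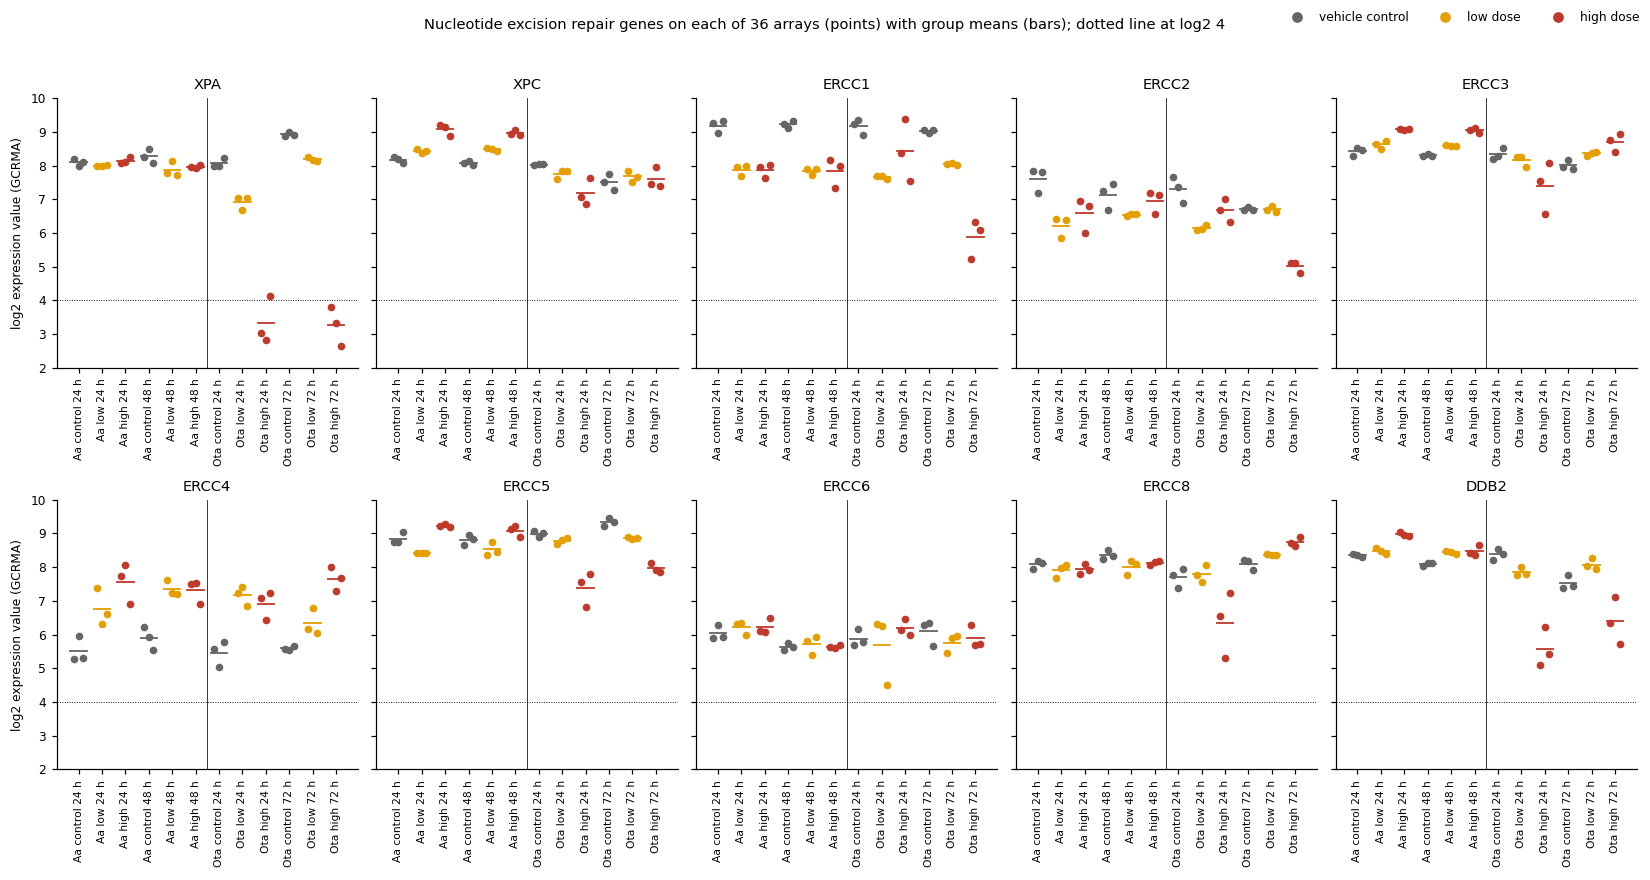
Log2 expression values of the 10 repair genes on each of the 36 arrays (y axis) by group (x axis, vehicle control grey, low dose orange, high dose red), with bars at group means and a dotted line at a log2 value of 4, at or under which values have no dependable order. XPA drops to the dotted line or under it with the Ota high dose at both times, ERCC4 lies higher in every treated group than in its controls, and ERCC6 varies little between groups.

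XPC and DDB2, the sensors of global genome repair, were higher with the Aa high dose and lower with the Ota high dose at 24 h, the latter for XPC on the deposited scale only. XPC, which binds DNA where the helix is distorted, read 9.19, 9.14 and 8.89 in Aa high dose at 24 h against 8.24, 8.21 and 8.09 in controls. Each treated array lay above each control array, and the rise of 0.90 ± 0.10 is 1.86-fold (adjusted p = 2.5e-06, limma). At 48 h it rose by the same 0.90 ± 0.10 (adjusted p = 1.03e-06), from 8.07, 8.13 and 8.02 to 8.95, 9.07 and 8.91. With the Aa low dose XPC was higher by 0.26 ± 0.10 at 24 h (adjusted p = 0.0574, and 0.0134 in the fit with the replicate number as a block). At 48 h it rose by 0.42 ± 0.10 (adjusted p = 0.00341). XPC thus ranked by dose in Aa at both times: the high dose exceeded the low dose by 0.64 ± 0.10 at 24 h and 0.49 ± 0.10 at 48 h (adjusted p = 0.00021 and 0.000771).

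In the Ota high dose at 24 h XPC read 7.06, 6.85 and 7.63 against 8.01, 8.04 and 8.04, a change of -0.85 ± 0.19 (adjusted p = 0.00124). The groups did not overlap. This call does not survive other scalings of the arrays: the change was -0.41 after quantile normalization (adjusted p = 0.0532) and -0.18 with arrays shifted to a common median (adjusted p = 0.376). At 72 h the treated arrays at 7.46, 7.95 and 7.40 overlapped the controls at 7.51, 7.74 and 7.29 (change 0.09 ± 0.19, adjusted p = 0.691), although with arrays shifted to a common median XPC was called higher by 0.44 (0.0389). The gene LSM3, whose start faces that of XPC, differed by 0.02 ± 0.15 in Aa high dose at 24 h and by -0.01 ± 0.14 in Ota high dose at 24 h, neither called by limma (adjusted p = 0.904 and 0.971). At the later times LSM3 was called higher in all 4 treated groups: by 0.46 and 0.41 with the Aa high and low dose (0.0146 and 0.0479), and by 1.35 and 0.66 with the Ota high and low dose (4.69e-07 and 0.00356). LSM3 was read because of its position, after the XPC values were known.

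DDB2, the DNA-binding subunit of the ultraviolet-damage sensor, read 9.05, 8.95 and 8.91 in Aa high dose at 24 h against 8.38, 8.37 and 8.30 in controls. All treated arrays were higher, by 0.62 ± 0.09 (adjusted p = 5.36e-05). At 48 h it rose by 0.39 ± 0.09 with the high dose and 0.35 ± 0.09 with the low dose (adjusted p = 0.00171 and 0.00756). Those 48 h calls were lost when all 36 arrays shared 1 estimate of the spread (adjusted p = 0.144 and 0.249). The Aa low dose at 24 h gave 0.13 ± 0.09 (adjusted p = 0.342).

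With the Ota high dose DDB2 read 5.10, 6.22 and 5.41 at 24 h, against 8.20, 8.55 and 8.40 in controls. All treated arrays were lower, by 2.81 on the log2 scale on average, which is 7.00-fold (change -2.81 ± 0.30, adjusted p = 7.79e-07). At 72 h the treated arrays were at 6.35, 7.12 and 5.71 against 7.39, 7.77 and 7.45, a change of -1.14 ± 0.30 (adjusted p = 0.00358). The controls themselves were lower at 72 h than at 24 h by 0.85 ± 0.30 (change -0.85, adjusted p = 0.0439). That comparison of controls called 3 members, and leaving out any 1 of its 6 arrays left 0 or 1 called. The Ota low dose did not pass the test at either time, with -0.52 ± 0.30 at 24 h and 0.54 ± 0.30 at 72 h (adjusted p = 0.291 and 0.247). In the order of group means DDB2 was highest in Aa high dose at 24 h (8.97 ± 0.07, SD, n = 3), and lowest in Ota high dose at 24 h (5.57 ± 0.58). The groups ranked second to sixth, from 8.48 down to 8.35, each differed from the next by less than the larger SD.

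XPA, the scaffold that verifies the lesion, had the largest fall of the 10 genes. In Ota high dose at 24 h its values were 3.02, 2.83 and 4.13 against 7.99, 7.99 and 8.24 in controls. At 72 h they were 3.80, 3.33 and 2.65 against 8.88, 8.99 and 8.92. All but 1 of the 6 treated arrays thus lay under a log2 value of 4, and no treated array came near a control.

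The fitted change at 24 h was -4.74 ± 0.29 (adjusted p = 1.87e-09), or -4.03 with values at or under 4 set to 4. At 72 h XPA was at least 30.5-fold lower than in controls (adjusted p = 4.65e-10). The lower bound takes 4 as the treated level, because all 3 arrays lay under it. The quantile and median-shift scalings left the 24 h change at -4.76 and -4.07. With the Ota low dose XPA read 7.03, 6.68 and 7.04 at 24 h, a change of -1.15 ± 0.29 (adjusted p = 0.014). That call was lost without control replicate 3 (adjusted p = 0.0558) and without low dose replicate 2 (0.0705). At 72 h the low dose arrays, at 8.26, 8.17 and 8.12, were also all under their controls, with a change of -0.75 ± 0.29 that did not pass (adjusted p = 0.0949). This p was 0.000338 once values at or under 4 were set to 4, which removes the spread among the dim high dose arrays of the same fit.

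With Aa, XPA lay near its controls: 0.04 ± 0.12 and -0.12 ± 0.12 at 24 h for the high and low dose (adjusted p = 0.79 and 0.554). At 48 h it was lower by 0.31 with the high dose and 0.40 with the low dose (changes -0.31 ± 0.12 and -0.40 ± 0.12, adjusted p = 0.0373 and 0.0194). Both 48 h calls were lost in several refits, among them the one without control replicate 2 (adjusted p = 0.184 and 0.1). The high dose call was also lost without control replicate 1 (0.0639) and without any 1 high dose array (0.0791, 0.0867 and 0.0533). The low dose call was lost without low dose replicate 1 (0.075) or 3 (0.0921). Only 1 probe set measures XPA alone, so no check from a second set was possible. XPA was highest in the Ota controls at 72 h, 8.93 ± 0.06, which exceeded the Ota controls at 24 h by 0.86 ± 0.29 (adjusted p = 0.0361). Leaving out any 1 of these 6 control arrays left 0 or 1 members called in that comparison.

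The 2 helicase subunits of TFIIH, the complex that opens the helix at a lesion and also serves transcription initiation, differed from each other. ERCC3, the translocase that starts opening, was higher with the Aa high dose at both times. It read 9.08, 9.06 and 9.08 at 24 h against 8.29, 8.53 and 8.46, and 9.06, 9.11 and 8.97 at 48 h against 8.29, 8.35 and 8.27. The groups did not overlap, and the rises were 0.65 ± 0.09 and 0.74 ± 0.09 (adjusted p = 2.62e-05 and 3.46e-06).

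The Aa low dose gave ERCC3 a change of 0.20 ± 0.09 at 24 h (adjusted p = 0.113) and 0.29 ± 0.09 at 48 h (0.0192). The 48 h call was lost without control replicate 1 (0.0502), control replicate 3 (0.0514) or low dose replicate 1 (0.0549), and at 0.302 in the fit of 36 arrays. With the Ota high dose ERCC3 read 7.56, 6.56 and 8.07 at 24 h against 8.19, 8.29 and 8.52, all lower, with a change of -0.94 ± 0.27 (adjusted p = 0.00627). ERCC3 changed there by -0.52 after quantile normalization (0.0426) and by -0.27 with arrays shifted to a common median (0.3). At 72 h it read 8.78, 8.42 and 8.93 against 7.96, 8.18 and 7.91, all higher, by 0.69 ± 0.27 (0.0339). This call held after quantile normalization (0.74, adjusted p = 0.00736) and the median shift (1.03, 0.000844). It was lost on leaving out treated replicate 1 (0.0825) or 3 (0.111) or control replicate 1 (0.0795) or 3 (0.0912), and with no filter on dim genes (0.0734). The Ota low dose gave -0.17 ± 0.27 and 0.35 ± 0.27 (adjusted p = 0.772 and 0.441).

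ERCC2, the helicase that unwinds the bubble, was lower on its representative probe set in 5 of the 8 comparisons with controls. With Aa at 24 h it read 6.96, 6.01 and 6.80 at the high dose and 6.41, 5.85 and 6.39 at the low dose, against 7.84, 7.19 and 7.81. All 6 treated arrays lay under all control arrays, with changes of -1.02 ± 0.27 and -1.40 ± 0.27 (adjusted p = 0.00559 and 0.00165). At 48 h the high dose change was -0.17 ± 0.27 (0.593) and the low dose change -0.59 ± 0.27 (0.0994). With the replicate number as a block the latter passed (adjusted p = 0.00372), and so did the difference in effect between the times, 0.85 for the high dose and 0.80 for the low dose (adjusted p = 0.00556 and 0.0275, against 0.129 and 0.367 without the block).

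With Ota, ERCC2 changed by -1.16 ± 0.18 in the low dose at 24 h (adjusted p = 0.000512) and by -0.01 ± 0.18 at 72 h (0.986). The high dose gave -1.70 ± 0.18 at 72 h (9.89e-07), from 6.70, 6.76 and 6.69 in controls to 5.11, 5.11 and 4.83. At 24 h it gave -0.64 ± 0.18 (0.00684), where treated arrays at 6.69, 7.01 and 6.32 overlapped controls at 7.67, 7.36 and 6.90, and where other scalings gave -0.13 (quantile, 0.606) and 0.036 (shifted, 0.886). A second probe set of ERCC2 differed from this picture in both compounds. It was higher with the Aa high dose, by 0.98 ± 0.27 at 24 h and 1.14 ± 0.27 at 48 h (adjusted p = 0.00732 and 0.00189, all probe sets in the fit), and lower with the Ota high dose at 24 h, by 0.98 (change -0.98 ± 0.38, adjusted p = 0.0359). With the Ota low dose at 24 h it changed by 0.026 ± 0.38 (0.983) and with the high dose at 72 h by -0.51 ± 0.38 (0.266), so the ERCC2 calls in those groups rest on 1 probe set. The direction of ERCC2 with Aa is uncertain.

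**Figure D2:**
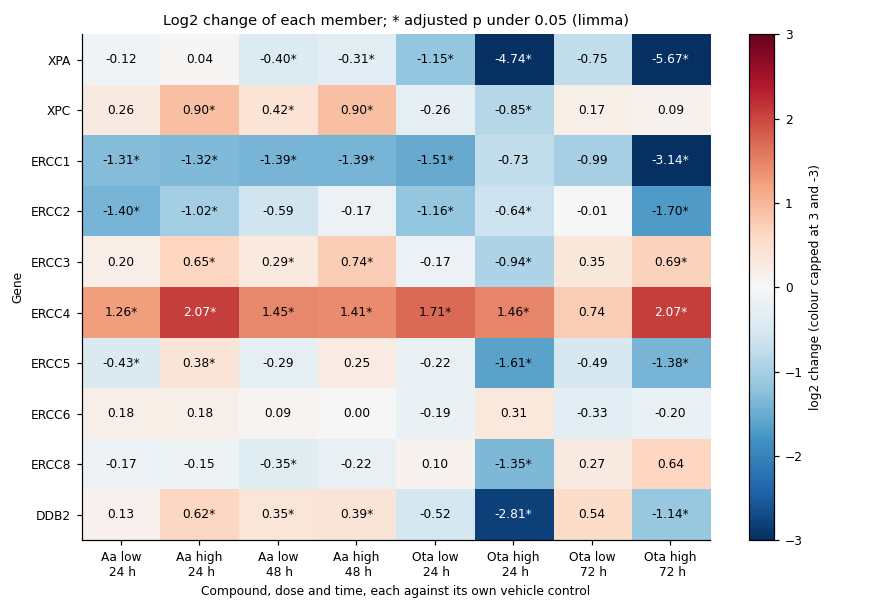
Log2 change of each repair gene (rows) in each treated group against its own vehicle control (columns), with the value printed in each cell, an asterisk at an adjusted p under 0.05 (limma) and colour capped at 3 and -3. On the representative probe sets ERCC1 is negative and ERCC4 positive in all 8 columns. XPC, ERCC3, ERCC5 and DDB2 are positive with the Aa high dose and negative with the Ota high dose at 24 h.

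ERCC1 and ERCC4 encode the 2 subunits of 1 nuclease, ERCC4 the cutting subunit and ERCC1 its partner. On their representative probe sets the 2 messages moved in opposite directions. Another set annotated to ERCC1, described below, rose as ERCC4 did. ERCC1 in Aa controls read 9.27, 8.98 and 9.32 at 24 h and 9.24, 9.11 and 9.33 at 48 h. The 12 Aa treated arrays lay between 7.33 and 8.18, all under every control array. The fall was of nearly one size at both doses and both times, from -1.31 to -1.39 ± 0.18 (adjusted p between 8.51e-06 and 0.000129).

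With Ota, ERCC1 read 7.69, 7.68 and 7.60 in the low dose at 24 h against 9.24, 9.37 and 8.90, a change of -1.51 ± 0.34 (adjusted p = 0.00628). In the high dose at 24 h the arrays were far apart, at 8.38, 9.37 and 7.56, and overlapped the controls (-0.73 ± 0.34, adjusted p = 0.0687). Without treated replicate 2 the change was -1.20 (0.00124). In the high dose at 72 h ERCC1 read 5.24, 6.34 and 6.10 against 9.07, 8.96 and 9.05, or 8.80-fold lower (change -3.14 ± 0.34, adjusted p = 8.96e-07). The low dose at 72 h, at 8.04, 8.09 and 8.005, lay under all controls with a change of -0.99 ± 0.34 (0.0563). A second probe set gave nearly the same changes with Aa, -1.28 to -1.35, was called lower in 7 of the 8 comparisons, and changed by -0.35 ± 0.41 in the Ota high dose at 24 h (adjusted p = 0.478).

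The remaining probe set annotated to ERCC1 moved the other way. It was called higher in all 4 Aa comparisons, by 0.42 and 0.99 at 24 h (high and low dose) and by 0.48 and 0.77 at 48 h (each ± 0.14), and at 24 h with both Ota doses, by 0.57 and 0.64 (each ± 0.20). At 72 h with Ota it changed by 0.21 ± 0.20 and 0.49 ± 0.20 for the high and low dose, with no call (adjusted p = 0.385 and 0.116). Whether it reads a different transcript form or a neighbouring gene was not tested, and POLR1G overlaps ERCC1 in the RefSeq annotation.

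**Figure D3:**
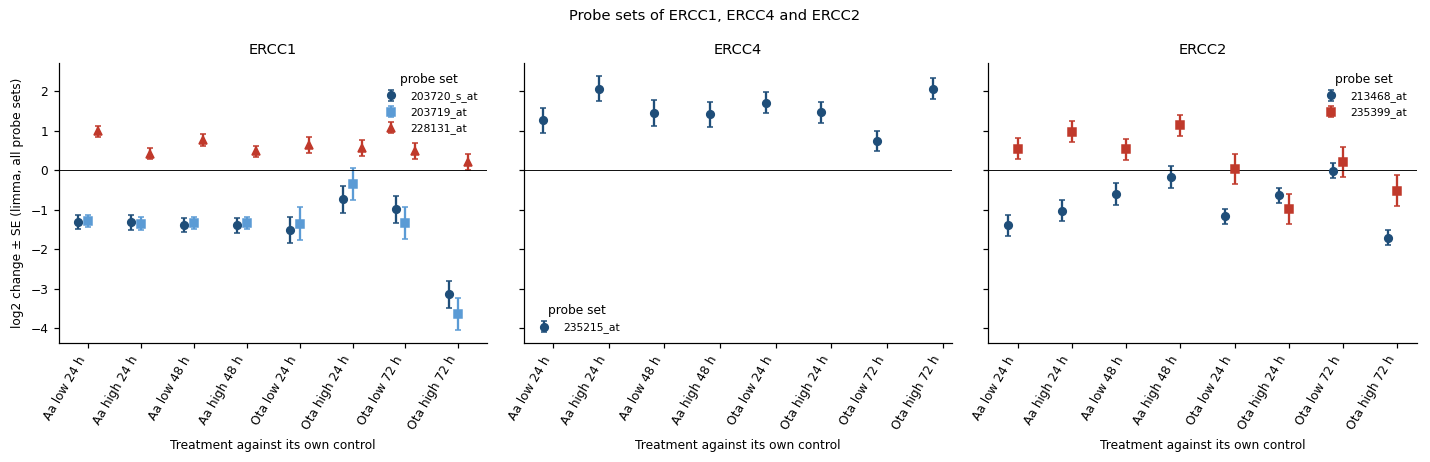
Log2 change ± SE (y axis; limma with all probe sets in the fit) of each probe set of ERCC1, ERCC4 and ERCC2 that exceeded a log2 value of 4, in the 8 treated groups against their controls (x axis). For ERCC1 the probe sets in blue lie under 0 and the one in red above it in all 8 comparisons, for ERCC4 the only set above 4 is positive throughout, and for ERCC2 the sets have opposite signs in the 4 Aa comparisons.

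ERCC4 was higher than in controls in all 8 comparisons, and 7 were called. At 24 h with the Aa high dose it read 7.74, 8.07 and 6.91 against 5.27, 5.95 and 5.30, or 4.19-fold higher (change 2.07 ± 0.32, adjusted p = 7.69e-05). The low dose gave 7.39, 6.32 and 6.60, a rise of 1.26 ± 0.32 (0.00942) that was 0.95 without low dose replicate 1 (0.0552). At 48 h both doses gave nearly the same rise, 1.41 ± 0.32 and 1.45 ± 0.32 (adjusted p = 0.0012 and 0.00261).

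With Ota at 24 h ERCC4 rose by 1.46 ± 0.26 with the high dose and by 1.71 ± 0.26 with the low dose (adjusted p = 0.000145 and 0.000362). At 72 h the high dose arrays read 7.99, 7.31 and 7.69 against 5.58, 5.54 and 5.66, a rise of 2.07 ± 0.26 (4.82e-06). The low dose arrays at 6.16, 6.80 and 6.06 were above all controls, with a change of 0.74 ± 0.26 (0.063). In none of the 8 comparisons did treated and control arrays of ERCC4 overlap. This also held for DDB2, and for ERCC1 in 7 of the 8. The share of all genes without overlap was not computed, so these counts do not set the members apart from other genes. DDB2 was called in only some of these comparisons, 3 higher and 2 lower. In the order of group means the 4 control groups were the lowest, from 5.46 to 5.90. A second ERCC4 probe set never exceeded 4 and gave no check.

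ERCC5, the nuclease that cuts on the 3′ side, split by dose in Aa. At 24 h it read 9.21, 9.28 and 9.18 at the high dose and 8.42, 8.43 and 8.41 at the low dose, with controls between them at 8.75, 8.75 and 9.04. None of the 3 groups overlapped, and the changes were 0.38 ± 0.12 and -0.43 ± 0.12 (adjusted p = 0.02 and 0.0212). Each of these depended on single arrays. The high dose call did not hold once control replicate 1 (0.0741), control replicate 2 (0.075) or treated replicate 2 (0.0583) was left out, nor with arrays shifted to a common median (0.0705). The low dose call did not hold once control replicate 3 (0.104), treated replicate 1 (0.0565) or treated replicate 3 (0.0595) was left out. In the fit of 36 arrays neither call held (0.0548 and 0.0574). The contrast of the doses themselves was larger, 0.80 ± 0.12 at 24 h and 0.55 ± 0.12 at 48 h (adjusted p = 0.000276 and 0.00226).

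At 48 h ERCC5 differed from controls by 0.25 ± 0.12 and -0.29 ± 0.12 (adjusted p = 0.0856 and 0.0761, the latter 0.0403 with the replicate block). With the Ota high dose ERCC5 fell at both times. It read 7.56, 6.82 and 7.79 at 24 h against 9.07, 8.91 and 9.01, and 8.12, 7.91 and 7.86 at 72 h against 9.23, 9.47 and 9.34. All treated arrays were lower, with changes of -1.61 ± 0.19 and -1.38 ± 0.19 (adjusted p = 1.84e-06 and 9.19e-06). The Ota low dose gave -0.22 ± 0.19 and -0.49 ± 0.19 (0.52 and 0.0853). The read-through gene BIVM-ERCC5 overlaps ERCC5, and its transcripts cannot be told apart from those of ERCC5 here.

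ERCC6 and ERCC8, which act at stalled polymerases, had small changes with Aa. ERCC6, the remodeller, was not called in any of the 8 comparisons, and its 36 values ran from 4.50 to 6.50. Its changes lay between -0.33 and 0.31, with SEs of 0.16 for Aa and 0.37 for Ota, so that modest changes with Ota were not detectable. In the Ota high dose at 24 h the change was 0.31 (adjusted p = 0.479), and 0.99 with arrays shifted to a common median (0.0301). A dim second set exceeded 4 on only 4 arrays, the 3 of the Aa high dose at 24 h (4.06, 4.59 and 5.61) and 1 of the low dose, so it passed the filter through the group where it was high and is given no test. A set shared by annotation with PGBD3 was not used.

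ERCC8, the substrate receptor of a ubiquitin ligase, read 6.54, 5.31 and 7.22 in Ota high dose at 24 h against 7.77, 7.38 and 7.94. All treated arrays were lower, with a change of -1.35 ± 0.33 (adjusted p = 0.00192). At 72 h the treated arrays at 8.71, 8.63 and 8.88 lay above the controls at 8.22, 8.18 and 7.91, with a change of 0.64 ± 0.33 that did not pass (0.0996), and passed at 0.68 after quantile normalization (0.0451) and at 0.98 after the median shift (0.00539). A second set of ERCC8 gave -1.27 ± 0.28 at 24 h (0.000963) and 0.27 ± 0.28 at 72 h (0.418). With the Ota low dose ERCC8 changed by 0.10 ± 0.33 at 24 h and 0.27 ± 0.33 at 72 h (0.908 and 0.652).

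With Aa, ERCC8 changed by -0.15 ± 0.13 and -0.17 ± 0.13 at 24 h (high and low dose, 0.359 and 0.391) and by -0.22 ± 0.13 with the high dose at 48 h (0.155, and 0.0201 with the replicate block). Only the low dose at 48 h was called, -0.35 ± 0.13 (0.0485). That call was lost on leaving out control replicate 2 (0.169) or 3 (0.0834) or low dose replicate 1 (0.226) or 3 (0.0687), with other scalings (0.0641 and 0.104), with no filter (0.064), with an intensity trend (0.0589) and in the fit of 36 arrays (0.315). The second set of ERCC8 changed by -0.69 ± 0.22 in the Aa high dose at 24 h (0.0164) and by -0.63 ± 0.22 in the low dose at 48 h (0.0364).

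The contrast of high with low dose differed between members. In Aa, high against low dose, XPC, ERCC3, ERCC5 and DDB2 were higher at 24 h (4 members, with 27.1% of all genes called, 17.1% higher and 9.95% lower) and XPC, ERCC3 and ERCC5 at 48 h (3 members, with 46.5% called, 20.9% higher and 25.6% lower). ERCC1 differed by -0.01 ± 0.18 between the Aa doses at each time. ERCC4 was higher at the high dose at 24 h by 0.81 ± 0.32 (adjusted p = 0.0767, and 0.0238 with the replicate block). ERCC2 was higher by 0.42 ± 0.27 at 48 h (0.228, and 0.0224 with the block). In Ota, high against low dose, 1 member was higher and 6 lower at 24 h, where 58.1% of all genes were called (19.4% higher and 38.7% lower). Under both other scalings it was 3 higher and 4 lower at 24 h: ERCC1 and ERCC6 were then called higher, and XPC and ERCC3 were no longer called. At 72 h it was 1 higher and 5 lower, with 58.4% called (21.7% and 36.7%), and 3 higher and 5 lower with arrays shifted to a common median. Leaving out treated replicate 2 or low dose replicate 2 left 4 called at 24 h. ERCC4 was the member higher at 72 h (1.33 ± 0.26, 0.00045), and ERCC2 the one at 24 h (0.53 ± 0.18, 0.0224), where its second probe set went the other way (-1.01 ± 0.38, 0.0361).

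The Ota effect on several members differed between times. The difference of the high dose effect between 72 h and 24 h was called for 6 members, 4 upward and 2 downward, where 53.8% of all genes were called (33.0% upward and 20.8% downward). XPC, ERCC3, ERCC8 and DDB2 were less low or turned higher by 72 h, with differences of 0.94 to 1.98. ERCC1 and ERCC2 went further down, by -2.40 ± 0.48 and -1.07 ± 0.26 (adjusted p = 0.000613 and 0.00297), although the second ERCC2 set gave 0.47 ± 0.54 (0.501). ERCC4 and ERCC5 did not pass, with differences of 0.61 ± 0.37 and 0.22 ± 0.26 (0.178 and 0.499). For XPA no difference between the times could be measured, since all but 1 of the 6 high dose arrays lay under 4. Its fitted value of -0.93 (0.0686), which was called with arrays shifted to a common median (-1.26, 0.00769), stands beside the rise of 0.86 in the controls. For the Ota low dose ERCC2 was called (1.16 ± 0.26, 0.0156), but not after quantile normalization (0.0513), with shifted arrays (0.0669) or on its second probe set (0.19 ± 0.54, 0.906), with 7.34% of all genes called (5.31% upward and 2.02% downward).

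For Aa, limma called no member for a time difference of either dose effect, with 1 (high dose) and 0 (low dose) members at an unadjusted p under 0.05. Of all genes 20.7% were called for the high dose (7.14% upward and 13.6% downward) and 1.64% for the low dose (1.38% and 0.264%). With the replicate block 1 member, ERCC2, was called for each dose. The later and earlier controls differed in no member for Aa (limma; 1.29% of all genes called, 0.565% higher and 0.729% lower, with 2 members at an unadjusted p under 0.05). There the block called ERCC2 at -0.48 (0.0378) and ERCC8 at 0.27 (0.0331). In Ota the controls differed in 3 members, XPA higher and ERCC2 and DDB2 lower at 72 h, with 29.8% of all genes called (14.0% higher and 15.8% lower). Leaving out any 1 of the 6 control arrays left 0 or 1 of these calls.

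The Ota high dose effect at 24 h was also set against that of Aa, although the doses are not stated to match. The difference was called for 6 members, on the deposited scale all lower with Ota, where 59.4% of all genes were called (18.7% higher and 40.7% lower with Ota). Under quantile normalization ERCC2 was called higher with Ota (0.94, adjusted p = 0.0257), and with arrays shifted to a common median ERCC2 (1.13, 0.00562) and ERCC1 (1.33, 0.00882) were, which left 5 members lower in each, while the second ERCC2 probe set was lower with Ota (-1.96, 0.00116). The differences were -4.79 ± 0.33 for XPA, -3.43 ± 0.32 for DDB2, -1.98 ± 0.23 for ERCC5, -1.75 ± 0.22 for XPC, -1.58 ± 0.29 for ERCC3 and -1.19 ± 0.36 for ERCC8 (adjusted p from 1.21e-12 to 0.0061). The ERCC8 difference did not pass after quantile normalization (-0.65, adjusted p = 0.0858) or the median shift (-0.45, 0.224). On the deposited scale ERCC1 and ERCC4 differed by 0.59 ± 0.40 and -0.61 ± 0.43, with no call (0.207 and 0.225).

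**Figure D4:**
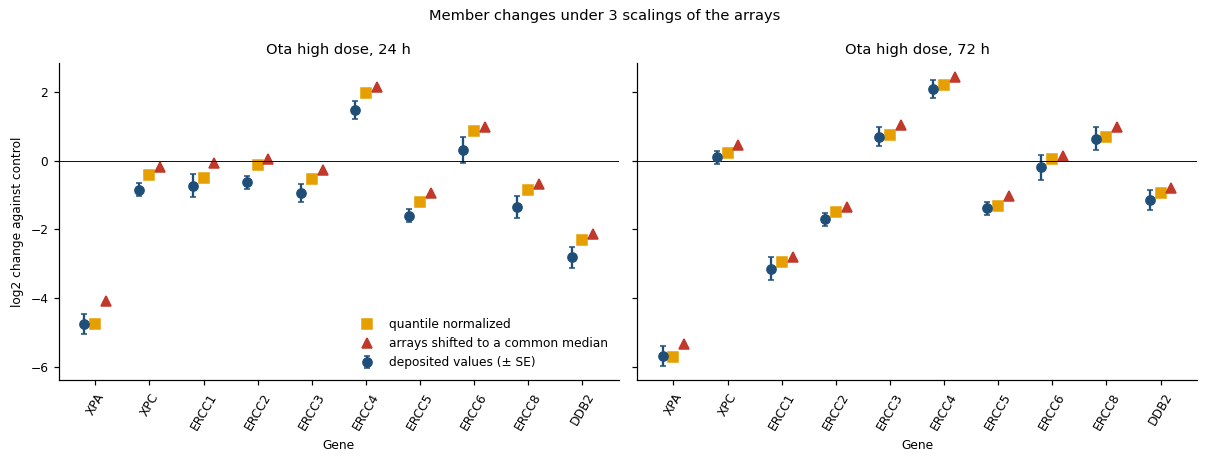
Log2 change of each repair gene (x axis) in the Ota high dose against control (y axis) at 24 h and 72 h, from the deposited values (circles, ± SE), after quantile normalization (squares) and with arrays shifted to a common median (triangles). At 24 h only ERCC2 changes sign, from -0.64 to 0.036 with the median shift. XPA, XPC, ERCC1, ERCC3, ERCC5, ERCC8 and DDB2 stay negative and ERCC4 and ERCC6 stay positive under all 3 scalings. Of these, XPA, ERCC5, ERCC8, DDB2 and ERCC4 are called under each scaling.

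Scaling matters for Ota because its high dose arrays have lower values overall. Shifting arrays to a common median moved the median change of all tested genes in the Ota high dose from -0.26 to 0.44 at 24 h and from -0.12 to 0.24 at 72 h. The share of called genes that were higher went from 33.7% to 66.0% at 24 h and from 41.5% to 60.2% at 72 h. After quantile normalization it was 45.0% and 44.7%. The share also turned with the median shift for Ota high against low dose (33.4% to 65.7% at 24 h, 37.2% to 61.4% at 72 h), the Ota low dose at 24 h (31.7% to 58.1%), the Ota dose effects over time (61.3% to 44.3% for the high dose, 72.4% to 44.7% for the low dose) and Ota against Aa (31.4% to 64.8%). In Aa it went from 63.2% to 46.5% for high against low dose at 24 h, and from 34.4% to 49.4% for the high dose effect over time. Smaller turns were seen in Aa for the high dose (53.3% to 47.2%) and low dose (46.4% to 53.4%) at 24 h and the low dose at 48 h (49.6% to 52.2%). Between the Ota controls it went from 46.9% to 50.8%. The Aa high dose called 4 members higher and 2 lower at 24 h with the median shift, and 4 and 1 at 48 h under both other scalings. Relative to the shifted median of all genes in the Ota high dose at 24 h, XPA (-4.07), DDB2 (-2.14), ERCC5 (-0.93) and ERCC8 (-0.67) were still called lower. ERCC4 (2.13) and ERCC6 (0.99) were called higher. At 72 h XPA (-5.33), ERCC1 (-2.80), ERCC2 (-1.36), ERCC5 (-1.04) and DDB2 (-0.80) were still called lower, and ERCC4 (2.41), ERCC3 (1.03), ERCC8 (0.98) and XPC (0.44) were called higher.

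Across the 12 group means, ERCC1 and ERCC4 had Pearson r = -0.84, ERCC1 and ERCC2 r = 0.91, XPA and ERCC5 0.88, XPA and DDB2 0.87, and XPC and ERCC3 0.85. These describe groups that share controls and compounds, and carry no test. They use the representative probe sets, while another set of ERCC1 and the second set of ERCC2 went the other way with Aa. Over 10649 genes tested in both compounds, the patterns most like that of XPC were those of MRGBP, NUP214 and PUS1 (r = 0.98 each). For DDB2 they were TTLL4, MAF1 and SUV39H2 (0.98 each), and for ERCC1 SFXN2 (0.98), LARS1 (0.97) and CISD3 (0.97).

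ERCC1 and ERCC2 lie near each other on chromosome 19, with PPP1R13L and POLR1G between them. These neighbours were not called lower with the Aa high dose, but both were with the Ota high dose at 24 h. PPP1R13L changed by 0.32 ± 0.27 and POLR1G by 0.20 ± 0.14 in Aa high dose at 24 h (adjusted p = 0.354 and 0.264), and POLR1G rose by 1.05 ± 0.14 at 48 h (1.25e-05). In Ota high dose at 72 h they changed by 0.08 ± 0.22 and 0.13 ± 0.14 (0.767 and 0.454). In Ota high dose at 24 h PPP1R13L changed by -1.15 ± 0.22 (0.00023) and POLR1G by -0.34 ± 0.14 (0.047), and POLR1G was also lower in the low dose at 24 h (-0.45 ± 0.14, 0.0499), where ERCC1 and ERCC2 were called lower.

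The wider pathway was read from 43 further genes, of which 40 were tested. With the Aa high dose 10 rose and 6 fell at 24 h, and 13 rose and 8 fell at 48 h. With the Ota high dose 6 rose and 19 fell at 24 h, and 12 rose and 16 fell at 72 h. These Ota counts depend on the scaling: with arrays shifted to a common median they were 19 higher and 16 lower at 24 h and 18 and 9 at 72 h, and after quantile normalization 8 and 16, then 13 and 13. The low doses called 6 higher and 7 lower (Aa, 24 h), 8 and 5 (Aa, 48 h), 1 and 5 (Ota, 24 h) and 8 and 5 (Ota, 72 h). The shares of all genes called in these comparisons are those given with the member counts.

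Among partners of the damage sensors, CUL4B, a scaffold of the ubiquitin ligase that holds DDB2, fell by 0.66 and 0.97 on the log2 scale in Aa high dose at 24 h and 48 h, and RBX1 fell by 0.52 at 24 h. CUL4A, the paralog of CUL4B, fell by 2.92 in Ota high dose at 24 h. CETN2, a partner of XPC, rose by 0.69 at 24 h and fell by 0.94 at 72 h with the Ota high dose. RAD23B, another partner of XPC, rose by 0.93 at 72 h, but 1 other probe set of it was called the other way.

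Of 7 tested TFIIH genes, 3 rose and 2 fell in Aa high dose at 24 h. MNAT1, of the TFIIH kinase module, fell by 1.36 and GTF2H1, a core subunit, rose by 1.05. At 48 h MNAT1 and the kinase CDK7 fell (changes -1.83 and -1.78). With the Ota high dose GTF2H4, a core subunit, fell by 4.14 at 24 h (change -3.21 with values at or under 4 set to 4). CCNH, the cyclin of the kinase module, fell by 3.40 at 24 h and 2.51 at 72 h, and CDK7 fell by 1.31 at 72 h.

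Of 6 tested transcription-coupled repair genes, ELOF1, an elongation factor, rose by 0.57 and 1.33 with the Aa high dose at 24 h and 48 h and fell by 1.05 with the Ota high dose at 24 h. XAB2 rose by 1.64 in Aa high dose at 48 h. UVSSA, which recruits TFIIH to stalled polymerases, rose by 1.29 in Ota high dose at 24 h. At 72 h TCEA1 fell by 1.47 and USP7 rose by 0.79. RPA2, of the single-strand binding complex RPA, rose by 0.47 and 0.26 with the Aa high dose and fell by 3.34 in Ota high dose at 24 h, and RPA1 rose by 0.88 at 72 h.

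Of 18 gap-filling and ligation genes, 5 rose and 2 fell in Aa high dose at 24 h (27.4% and 24.0% of all genes). At 48 h 8 rose and 3 fell (30.9% and 35.1%). In Ota high dose at 24 h 3 rose and 11 fell (21.6% and 42.4%), but 6 rose and 9 fell with arrays shifted to a common median. In Ota high dose at 72 h 7 rose and 5 fell with that shift, and 5 rose and 6 fell after quantile normalization. The polymerase subunits POLE and POLE3 rose by 1.16 and 0.85 at 24 h and by 1.60 and 1.43 at 48 h with the Aa high dose. RFC4 and RFC3, of the clamp loader, fell by 3.74 and 3.58 in Ota high dose at 24 h. RFC4 fell by 4.54 at 72 h, where LIG3 fell by 2.11 (change -1.78 with values at or under 4 set to 4). Adjusted p for all these named genes was at most 0.033 (limma).

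**Figure D5:**
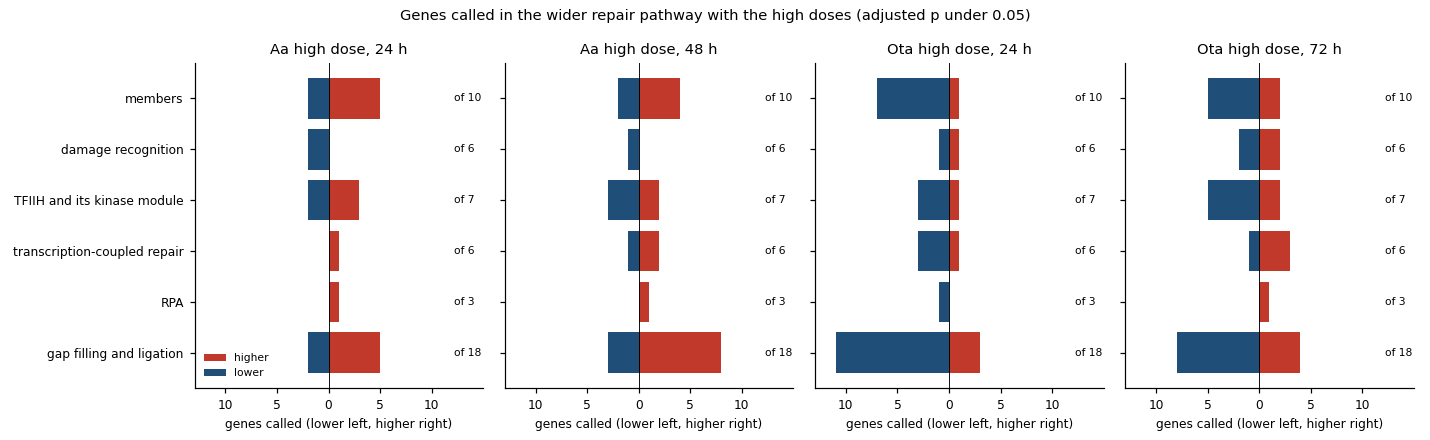
Number of genes called lower (blue, to the left) and higher (red, to the right) at an adjusted p under 0.05 in the 10 members and 5 lists of further repair genes, for the 4 high dose comparisons, with the number tested at the right of each panel. With Ota at 24 h, 7 of 10 members and 11 of 18 gap-filling and ligation genes are lower on the deposited scale, against 5 or 4 members and 9 of those 18 genes under the quantile and median-shift scalings.

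Since XPC and DDB2 are p53 targets, 13 other tested p53 target genes were read beside them. With the Aa high dose 6 rose and 1 fell at 24 h, where 27.4% of all genes were called higher and 24.0% lower. At 48 h 5 rose and 5 fell, where 30.9% and 35.1% were called. Under both other scalings 5 rose and 1 fell at 24 h. GADD45A, a stress-response gene, rose by 1.81 and 3.05, and CDKN1A, a cell cycle inhibitor, rose by 1.57 and 2.02. With the Ota high dose 2 rose and 7 fell at 24 h (21.6% and 42.4% of all genes), and 2 rose and 4 fell at 72 h (26.3% and 37.0%). With arrays shifted to a common median these were 6 higher and 4 lower at 24 h, and 5 and 4 at 72 h. After quantile normalization they were 5 and 7 at 24 h, and 3 and 4 at 72 h. At 24 h ZMAT3 and the death receptor FAS fell (changes -3.04 and -2.78). At 72 h CDKN1A rose by 2.05 and TP53INP1 fell by 1.81, beside the values of DDB2 and XPC given above. The adjusted p of GADD45A, CDKN1A, ZMAT3, FAS and TP53INP1 in the comparisons named here was at most 0.000173 (limma).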

How the data were processed

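The authors deposited log2 expression values for each probe set, made with GCRMA per the submitters' processing notes. The sources used here give neither its version nor whether the arrays were normalized in 1 run. GCRMA subtracts a sequence-based background, normalizes arrays to each other and summarises probes, which can reduce overall differences in RNA. Scan dates and slides were not used here, so batches were not tested. Of 54675 probe sets, 62 control sets were left out. Genes above a log2 value of 4 on 3 or more arrays of the fit were tested: 10972 for Aa, 11029 for Ota and 11405 for both. Group means were fitted with limma 3.58.1 in R 4.3.3 to the 18 arrays of a compound, or to all 36 to compare compounds. P-values are two-sided, with Benjamini-Hochberg adjustment over all genes in each of 19 comparisons. In simulated data for the high doses at 24 h, changes of 1 and of 0.5 (log2) were each given to 100 genes. The fit recovered 68% (Aa) and 52% (Ota) of changes of 1, and 36% and 16% of changes of 0.5. Far more genes were called in the data, which makes the adjusted threshold less strict. These shares therefore do not measure what the fit recovers there.

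In Aa, replicate numbers paired the samples: deviations from group means correlated above 0.1 in all 45 same-numbered pairs (lowest 0.19, median 0.43), a pairing read from the data and not from a stated batch. Blocked values are given where they change a call. The text names all members, the 2 most changed called genes of each further list in each high dose comparison, and the 3 genes most like XPC, DDB2 and ERCC1. Members and lists were chosen with earlier results of these data known. Other settings were 2 scalings, 2 filters, a floor at 4, an intensity trend, the block, other probe sets, 1 fit of 36 arrays, and leaving out each array. Figures used matplotlib 3.10.9 in Python 3.11.15.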

Additional observations from a re-analysis of the deposited data

Results flagged for a closer look

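Differences in effect between times or compounds were called by limma for 13 member results, each resting on groups of 3 arrays. The Ota high dose effect at 72 h minus that at 24 h was 0.94 ± 0.27 for XPC (adjusted p = 0.0091), 1.63 ± 0.38 for ERCC3 (0.00208), 1.98 ± 0.46 for ERCC8 (0.00203) and 1.66 ± 0.42 for DDB2 (0.00394), and -2.40 ± 0.48 for ERCC1 (0.000613) and -1.07 ± 0.26 for ERCC2 (0.00297), for which the second probe set gave 0.47 ± 0.54 (0.501). ERCC1 and ERCC8 also had the widest spreads within the Ota high dose at 24 h among these genes, from 7.56 to 9.37 and from 5.31 to 7.22. For the Ota low dose the same difference was 1.16 ± 0.26 for ERCC2 (0.0156), a call lost after quantile normalization (0.0513), with shifted arrays (0.0669) and on the second probe set (0.906).

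The Ota minus Aa difference of the high dose effect at 24 h was -4.79 ± 0.33 for XPA (adjusted p = 1.21e-12), -1.75 ± 0.22 for XPC (9.41e-08), -1.58 ± 0.29 for ERCC3 (3.13e-05), -1.98 ± 0.23 for ERCC5 (1.93e-08), -1.19 ± 0.36 for ERCC8 (0.0061) and -3.43 ± 0.32 for DDB2 (6.6e-10), by limma on all 36 arrays. The ERCC8 call was lost under both other scalings (0.0858 and 0.224). The doses are not stated to match. Single outlying arrays were not tested for, since groups of 3 are too small.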

How the results depend on the processing

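Of 3237 values recomputed under other settings, 3026 kept their side of the threshold without a counted reversal, and 28 reversed. A reversal is a change of sign in a value that was called under at least 1 of the settings compared. The 3026 include 63 values that changed sign but were called under neither setting. All but 1 of the reversals came from another probe set. On the ERCC1 set that rises, the changes were 0.42, 0.99, 0.48 and 0.77 with Aa (high and low dose at 24 h, then at 48 h) and 0.57, 0.64 and 0.21 with Ota (high and low dose at 24 h, high dose at 72 h). The second ERCC2 set, which also has the largest variance of its gene, gave 0.98, 0.55 and 1.14 with Aa (high and low dose at 24 h, high dose at 48 h), 0.026 with the Ota low dose at 24 h, -1.01 for Ota high against low dose at 24 h, 0.47 for the Ota high dose effect over time and -1.96 for Ota against Aa. A dim ERCC8 set gave 0.24 for the Ota high dose at 24 h, 0.45 against the low dose, -0.28 over time and 0.42 for Ota against Aa. It exceeded 4 only on those high dose arrays (4.04 to 4.28) and on the highest of their controls (4.10). A dim ERCC6 set, at or under 4 on every Ota array, gave -1.36 for Ota against Aa. Each of these dim sets passed the filter through the group where it was high, so their reversals give no check of direction. With arrays shifted to a common median, ERCC2 in the Ota high dose at 24 h was at 0.036. The causes of these differences were not tested.

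The number of members called moved by over 1.5 times as follows. For the Ota low dose at 72 h it went from 0 to 1 with the replicate block, the probe set of largest variance, values at or under 4 set to 4, or an intensity trend, to 2 with quantile normalization, and to 3 with shifted arrays or 36 arrays in 1 fit. That fit also gave 3 in place of 7 for the Aa low dose at 48 h, 2 in place of 4 for Aa high against low dose at 24 h, and 2 in place of 1 for the Ota low dose effect over time. The latter was 2 with the block, and 0 with the largest-variance set or shifted arrays. In Aa, the block called 1 member over time at each dose and 2 between controls, where 0 were called without it, and the largest-variance set called 1 for the high dose over time. With no filter, the Ota controls differed in 1 member in place of 3.

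Leaving out 1 array at a time gave 2 to 4 called members for the Aa low dose at 24 h, 4 to 8 at 48 h, 4 to 8 for Ota high against low dose at 24 h and 0 to 1 between the Ota controls. In the Ota arrays the numbers did not meet the criterion for pairing, a correlation above 0.1 in every same-numbered pair (24 of 45 had one). That 17 of 18 arrays correlated best with their own number is a hint of pairing from the data, so the block is given for Ota only here. There the block called ERCC1 in the Ota low dose at 72 h (-0.99, adjusted p = 0.042) and in high against low dose at 24 h (0.78, 0.0459), and DDB2 in the low dose effect over time (1.07, 0.048). In Aa it added XPC to the calls for the low dose at 24 h, ERCC2 and ERCC5 for the low dose at 48 h and ERCC8 for the high dose at 48 h. In neither compound did the block lose a member call. With 3 arrays a group, members without a call may still have changed. The self-test changed far fewer genes than were called in the data, so its shares do not measure how often that happened.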
